A study of Arabidopsis thaliana with 9 samples.

Results

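The 10 genes described here act in the uptake and handling of iron by roots: the transcription factors FIT (AT2G28160), bHLH38 (AT3G56970), bHLH39 (AT3G56980) and PYE (AT3G47640), the ubiquitin ligase BTS (AT3G18290), the ferric reductases FRO2 (AT1G01580) and FRO3 (AT1G23020), the iron transporter IRT1 (AT4G19690), the nicotianamine synthase NAS4 (AT1G56430) and the transporter OPT3 (AT4G16370). They were chosen by name for these roles, with earlier results of these data known. They were matched by gene identifier, 10 of the 33560 genes in the table. Averaged over the 9 libraries, 9 of them reached 1 FPKM and so were among the 17062 genes tested, and bHLH38 lay below that filter. FPKM is fragments scaled by transcript length and by the mapped fragments of a library, so genes can be set side by side. It does not remove a shift shared by many genes, as in seu-3 below, so differences between libraries depend partly on the scaling.

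RNA was sequenced from the root tips of Arabidopsis thaliana seedlings aged 5 days, in 3 libraries for each of 3 genotypes. Col-0 was the wild-type accession, with no mutation named. The wox5-1 line carries a mutant allele of the homeobox gene WOX5, whose product acts in the quiescent centre, the slowly dividing cells at the heart of the root stem cell niche. The seu-3 line carries a mutant allele of SEU, also called SEUSS, the gene of a transcriptional co-regulator. Each mutant was represented by 1 allele, no transgene was named in these samples, and all groups shared the same growth: cold for 2 days, then upright culture with 1% sucrose under 16 h of light and 8 h of dark. Iron supply was not varied between the groups, and the amount of tissue is given as about 1 mm of tip in one place in the labels and about 3 mm in another.

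Arabidopsis acquires iron by acidifying the soil around the root, reducing ferric iron at the surface of epidermal cells with FRO2 and importing the ferrous ion with IRT1. FIT is the central activator of this system, and it works as a heterodimer with bHLH38, bHLH39 and their close relatives. A second regulatory branch, active largely in the inner tissues, includes PYE, which represses genes of iron movement such as NAS4 and FRO3, and BTS, an iron-binding ubiquitin ligase that restrains the iron deficiency response.

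WOX5 (AT3G11260) had 0.301, 0.461 and 0.524 FPKM in Col-0 and was listed at 0 in the 3 wox5-1 libraries, and in seu-3 it was 0.0884, 0 and 0 FPKM. SEU (AT1G43850) was 4.71 ± 0.513 FPKM in seu-3 (SD, n = 3) against 15.1 ± 3.14 in Col-0 and 13.2 ± 0.156 in wox5-1. SEU overlaps the gene AT1G43860, so part of its remaining value may come from that neighbour's fragments. Library sums of FPKM ranged from 794809 to 839181, and steps of FPKM in genes with a single transcript put depth at roughly 8.05 to 13.0 M fragments. The 9 epidermis and root hair markers summed to 2766 to 2876 FPKM in Col-0 against 1861 to 2705 in wox5-1 and 3237 to 3967 in seu-3, so the layer that carries FRO2 and IRT1 was represented in every library. PRP3 made up the largest part of these sums, with means of 1878, 1634 and 2419 FPKM in Col-0, wox5-1 and seu-3. The 6 endodermis markers summed to 1431 to 2321, 1191 to 1910 and 1031 to 1472 FPKM in the same order. The 2 pollen markers were listed at 0 in every Col-0 and seu-3 library and above 0 in every wox5-1 library. There they summed to 2.43 to 46.4 FPKM, highest in replicate 3. The 3 leaf markers summed to 25.9 to 41.4 FPKM in Col-0, 27.2 to 70.2 in wox5-1 and 38.4 to 49.2 in seu-3. Among them RBCS1A had 28.6 FPKM in wox5-1 replicate 3 and 1.75 to 6.10 in the other libraries. By the size of these values wox5-1 replicate 3 stands apart, but the pollen signal was present throughout wox5-1.

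The regions just upstream of some members are shown because FIT, its partners and PYE belong to the basic helix-loop-helix family, whose members bind the E-box, CANNTG, of which the G-box, CACGTG, is one form. Each run below is the 300 bases before the annotated gene start in the RefSeq TAIR10.1 assembly, read 5′ to 3′ on the strand of the gene, with every CANNTG match in capitals. Both motifs read the same on either strand. IRT1 and FRO2 are shown as members that were lower in both mutants, bHLH38 and bHLH39 as neighbouring partners of FIT, and BTS and OPT3 as members that passed neither test against Col-0.
IRT1, chr4:10707044-10707343, plus strand: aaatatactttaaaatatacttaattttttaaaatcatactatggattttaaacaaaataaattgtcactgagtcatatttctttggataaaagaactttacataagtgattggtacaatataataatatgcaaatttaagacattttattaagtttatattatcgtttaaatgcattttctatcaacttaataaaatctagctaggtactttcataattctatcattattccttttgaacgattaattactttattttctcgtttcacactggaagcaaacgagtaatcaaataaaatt
FRO2, chr1:208695-208994, plus strand: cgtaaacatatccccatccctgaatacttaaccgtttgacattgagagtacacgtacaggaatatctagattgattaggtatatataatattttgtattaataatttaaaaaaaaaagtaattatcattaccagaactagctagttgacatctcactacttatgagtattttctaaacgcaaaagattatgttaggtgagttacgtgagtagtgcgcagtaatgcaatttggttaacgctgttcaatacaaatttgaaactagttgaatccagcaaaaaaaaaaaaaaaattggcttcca
bHLH38, chr3:21085246-21085545, minus strand: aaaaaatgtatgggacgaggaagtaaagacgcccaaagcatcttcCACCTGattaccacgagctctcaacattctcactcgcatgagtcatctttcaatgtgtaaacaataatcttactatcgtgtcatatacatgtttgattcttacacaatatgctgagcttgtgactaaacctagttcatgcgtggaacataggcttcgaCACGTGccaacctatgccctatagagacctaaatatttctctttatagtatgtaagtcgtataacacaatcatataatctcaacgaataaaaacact
bHLH39, chr3:21087711-21088010, minus strand: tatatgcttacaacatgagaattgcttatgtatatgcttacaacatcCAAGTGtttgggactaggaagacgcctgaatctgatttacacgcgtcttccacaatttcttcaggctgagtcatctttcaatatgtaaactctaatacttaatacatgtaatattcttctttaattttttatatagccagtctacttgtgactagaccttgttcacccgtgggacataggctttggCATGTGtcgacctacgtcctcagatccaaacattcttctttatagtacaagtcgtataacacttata
BTS, chr3:6273666-6273965, plus strand: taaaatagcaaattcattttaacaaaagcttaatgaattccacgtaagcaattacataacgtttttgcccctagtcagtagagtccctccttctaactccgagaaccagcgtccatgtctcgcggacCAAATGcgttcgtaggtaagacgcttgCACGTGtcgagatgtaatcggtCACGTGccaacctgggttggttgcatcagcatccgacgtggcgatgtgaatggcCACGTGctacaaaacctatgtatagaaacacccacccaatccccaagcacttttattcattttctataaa
OPT3, chr4:9250344-9250643, minus strand: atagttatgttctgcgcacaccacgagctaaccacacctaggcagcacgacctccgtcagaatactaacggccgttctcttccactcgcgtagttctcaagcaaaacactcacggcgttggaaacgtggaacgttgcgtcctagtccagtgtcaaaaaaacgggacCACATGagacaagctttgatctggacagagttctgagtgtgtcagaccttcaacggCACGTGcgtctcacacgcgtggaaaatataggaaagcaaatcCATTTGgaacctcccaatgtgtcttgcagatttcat
The G-box was present in 3 of the 10 members, against 7.09% of the 27443 protein-coding genes with an upstream region of this length. BTS had 3 copies, at 146, 124 and 70 bases before the gene start, bHLH38 had 1 at 97 bases and OPT3 had 1 at 78 bases. The E-box was present in 6 of the 10 members, against 61.9% of genes, with 0 to 4 matches in a member. Among the members not shown, NAS4, which was also lower in both mutants, held 1 E-box. FIT held 1 as well, and FRO3 and PYE held 0. A link between motifs and changes in the mutants was not tested. The windows of IRT1 and FRO2 held no CANNTG, which says only that these letters are absent from these 300 bases. A match is a string of letters and not a measured binding site.

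In Col-0 root tips the members covered a wide range of levels. FIT, the master activator, was the highest at 102 ± 5.67 FPKM (mean ± SD, n = 3), with no overlap with any other member. IRT1 at 58.6 ± 24.9 FPKM and FRO3 at 51.6 ± 2.44 came next and overlapped each other. BTS at 20.8 ± 0.739 and FRO2 at 15.5 ± 5.00 FPKM followed and overlapped as well. NAS4 at 7.27 ± 1.96, PYE at 6.73 ± 1.27 and OPT3 at 6.47 ± 1.33 FPKM could not be ordered beyond their spread. The FIT partners were low, with bHLH39 at 4.56 ± 0.535 FPKM and bHLH38 at 1.08 ± 0.761.

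**Figure D1:**
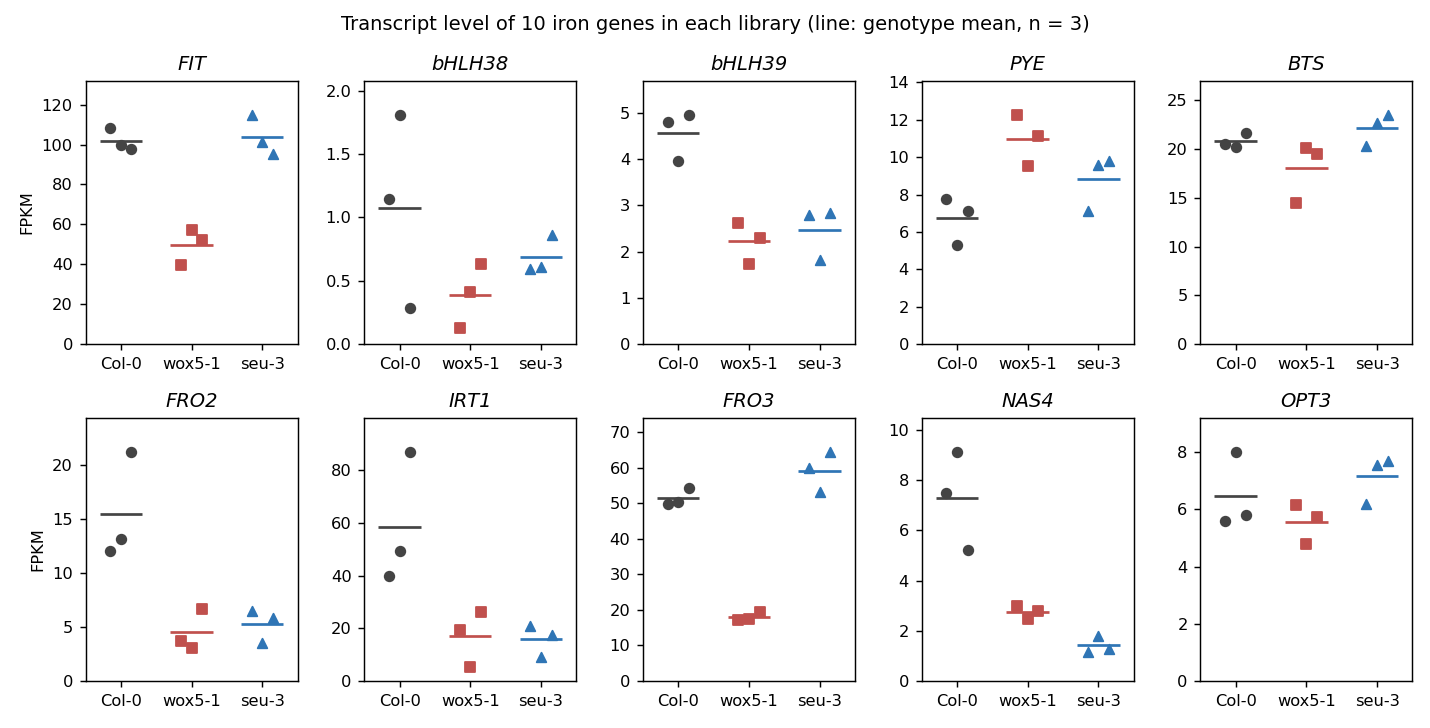
FPKM of the 10 members (vertical axes) in each of the 3 Col-0, wox5-1 and seu-3 libraries, with points for libraries and bars for group means. FIT sits between 39.8 and 57.1 FPKM in wox5-1, below every Col-0 and seu-3 library, whereas IRT1 and FRO2 are below Col-0 in both mutants.

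In wox5-1, most of the tested members were at a lower level than in Col-0. FIT was at 48.7% of its Col-0 level, FRO2 and IRT1 were each 3.45-fold lower, and FRO3 and NAS4 fell with them, while PYE rose. Among the 9 tested members, 6 fell and 1 rose, and the remaining 2 did not pass at an adjusted p below 0.05 (limma, Benjamini-Hochberg over all tested genes). Over all tested genes 27.3% were called, 13.5% lower and 13.7% higher, so the 6 members that fell are a larger share than the background. The members were chosen with earlier results of these data known. Setting them against all genes is therefore a description and not a test of the set. The median log2 change of the tested members was -1.04, beside 0.05 for all tested genes. Library values did not overlap between wox5-1 and Col-0 for 8 of the 10 members, against 50.2% of tested genes. The 4653 genes called over the whole table were 2648, 1523 and 3017 when Col-0 replicate 1, 2 or 3 was left out and 1690 when wox5-1 replicate 1 was, where the members called were 7, 5, 6 and 5.

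In seu-3, the difference in FIT was close to 0 before any rescaling, while FRO2, IRT1 and NAS4 fell. bHLH39 fell with a call that median-ratio and quantile scaling each ended. Among the 9 tested members, 4 fell and 0 rose, and the remaining 5 did not pass (limma). Over all tested genes 40.8% were called in this contrast, 34.2% lower and 6.66% higher, so 4 of 9 is near the background and is not a result about the set as a whole. The median log2 change of the tested members was 0.02, beside -0.24 for all tested genes. The main fit does not adjust the seu-3 values for that general shift. Of all genes 1136 were higher and 5830 lower, which became 3025 and 3003 after median-ratio scaling and 2269 and 2401 after quantile normalization. The members called were then 2 higher and 3 lower, and 1 higher and 3 lower. Without seu-3 replicate 3 the genes called over the whole table went from 6966 to 4575, with 4 members called. Library values did not overlap for 4 of the 10 members, against 56.3% of tested genes. Both mutant contrasts use the same 3 Col-0 libraries, so their values are set side by side below without a test of their likeness.

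**Figure D2:**
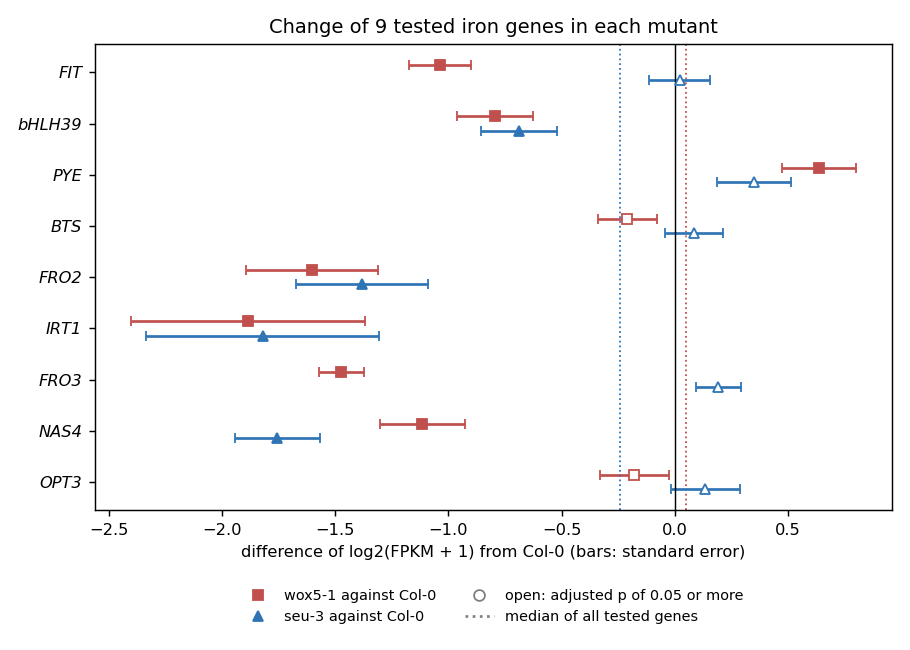
Difference of log2(FPKM + 1) for the 9 tested members in each mutant against Col-0 (horizontal axis), with bars of 1 limma standard error, open symbols at an adjusted p of 0.05 or more and dotted lines at the median of all tested genes. FRO2, IRT1, NAS4 and bHLH39 lie below 0 in both mutants, while FIT at -1.04 and FRO3 at -1.47 lie below 0 in wox5-1 but at 0.02 and 0.19 in seu-3.

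FIT (TAIR10.1 chr2:12004658-12006276, plus strand) had 108, 99.6 and 97.8 FPKM in Col-0, 39.8, 57.1 and 52.1 in wox5-1, and 115, 101 and 95.1 in seu-3. Every wox5-1 library was below every library of the other genotypes, and the seu-3 values spanned those of Col-0. The wox5-1 difference was -1.04 on the log2(FPKM + 1) scale (SE 0.14, limma adjusted p = 0.00191), the 525th lowest of 17062 genes. In seu-3 it was 0.02 (95% interval -0.28 to 0.32, adjusted p = 0.914, limma), an interval that leaves room for modest changes in either direction. It turned to -0.01 without Col-0 replicate 3 and to -0.05 without seu-3 replicate 1. With median-ratio scaling it was 0.29 (limma adjusted p = 0.106), and with sample quality weights 0.16 (limma adjusted p = 0.0964). The direct difference of seu-3 from wox5-1 was 1.06 (SE 0.14, limma adjusted p = 0.000184).

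The FIT partners bHLH38 and bHLH39 lie side by side on chromosome 3, both on the minus strand and 1144 bases apart (chr3:21084035-21085245 and chr3:21086390-21087710). Since they are close paralogs, some fragments may have been split between them. bHLH39 had 4.797, 3.95 and 4.94 FPKM in Col-0, 2.63, 1.73 and 2.30 in wox5-1, and 2.78, 1.82 and 2.83 in seu-3. All 6 mutant libraries were below all Col-0 libraries, and the mutants overlapped each other. The log2(FPKM + 1) difference was -0.79 in wox5-1 (SE 0.17, limma adjusted p = 0.0122). In seu-3 the difference was -0.69 (SE 0.17, limma adjusted p = 0.0116), but this call was lost when the libraries were rescaled by median ratios (-0.48, adjusted p = 0.0606) or by quantiles (-0.30, adjusted p = 0.257).

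bHLH38 had 1.14, 1.80 and 0.286 FPKM in Col-0, 0.129, 0.410 and 0.632 in wox5-1, and 0.595, 0.610 and 0.859 in seu-3. The groups overlapped throughout, with Col-0 replicate 3 below both of its partners and below every seu-3 library. These levels correspond to roughly 1.29 to 15.7 fragments per library, and the Col-0 libraries alone spanned 0.286 to 1.80 FPKM. Without the filter on low values the log2(FPKM + 1) difference was -0.52 in wox5-1 (limma adjusted p = 0.186) and -0.23 in seu-3 (limma adjusted p = 0.560). The exact two-sided permutation p was 0.3 for wox5-1 and 0.6 for seu-3 against Col-0, where 3 against 3 libraries cannot go below 0.1. bHLH38 also overlaps PIP5K4 on the opposite strand by 386 bases, and the strandedness of the libraries is not given in the sources used here.

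PYE, the repressor of the inner branch, had 7.79, 5.32 and 7.09 FPKM in Col-0, 12.2, 9.55 and 11.1 in wox5-1, and 7.14, 9.58 and 9.80 in seu-3. It was the only member to rise in wox5-1, where all libraries were above Col-0, with a log2(FPKM + 1) difference of 0.64 (SE 0.16, limma adjusted p = 0.0239). That call depended on single libraries: the adjusted p was 0.0902 or 0.0533 when wox5-1 replicate 1 or 3 was left out, and 0.0859 when Col-0 replicate 2 was (limma). The seu-3 libraries overlapped Col-0 (0.35, limma adjusted p = 0.114), and PYE passed there as higher after median-ratio scaling (0.59, adjusted p = 0.0231) and quantile normalization (0.66, adjusted p = 0.0195). BTS, the iron-sensing ligase, had 20.5, 20.2 and 21.6 FPKM in Col-0, 14.5, 20.1 and 19.5 in wox5-1, and 20.3, 22.6 and 23.4 in seu-3. The 3 wox5-1 libraries were all below Col-0, but 2 of them by little, and BTS passed neither test against Col-0 (-0.21, interval -0.50 to 0.08, adjusted p = 0.229 in wox5-1, and 0.09, adjusted p = 0.613 in seu-3, limma).

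FRO2 (chr1:208995-213082, plus strand), the reductase of the root surface, had 12.1, 13.2 and 21.2 FPKM in Col-0, 3.74, 3.05 and 6.71 in wox5-1, and 6.48, 3.55 and 5.86 in seu-3. All mutant libraries were below all Col-0 libraries. The log2(FPKM + 1) difference was -1.60 in wox5-1 (SE 0.29, limma adjusted p = 0.00678), the 96th lowest of all tested genes. In seu-3 it was -1.38 (SE 0.29, limma adjusted p = 0.00680), a 2.93-fold lower mean FPKM and the 392nd lowest of all tested genes. Both FRO2 calls were kept under every alternative run.

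IRT1 (chr4:10707344-10709015, plus strand), the main ferrous iron importer, had 39.7, 49.2 and 86.9 FPKM in Col-0, 19.2, 5.44 and 26.3 in wox5-1, and 20.8, 9.21 and 17.3 in seu-3. The groups of both mutants lay wholly below Col-0, although IRT1 had a wide spread in every genotype. Its log2(FPKM + 1) difference in wox5-1 was -1.89 (SE 0.52, limma adjusted p = 0.0285), the 47th lowest of all tested genes. This call was lost without wox5-1 replicate 1 (adjusted p = 0.0632), Col-0 replicate 3 (0.0787) or Col-0 replicate 2 (0.0734), limma in each case. In seu-3 the difference was -1.82 (SE 0.52, limma adjusted p = 0.0204), a 3.71-fold lower mean FPKM and the 110th lowest, and it was lost without Col-0 replicate 3 (adjusted p = 0.0747) or seu-3 replicate 2 (0.0626).

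FRO2 and IRT1 also varied together from library to library. Col-0 replicate 3 and wox5-1 replicate 3 were the highest of their genotypes for both genes, and wox5-1 replicate 2 and seu-3 replicate 2 were the lowest for both. Over the 9 libraries Pearson's r of log2(FPKM + 1) between IRT1 and FRO2 was 0.95, and it was 0.88 for deviations from the genotype means. IRT1 and bHLH39 gave 0.92 and 0.76, and FRO2 and bHLH39 gave 0.93 and 0.62. FRO3 gave 0.50 and 0.86 with FRO2 and 0.39 and 0.65 with IRT1. FIT and FRO3 gave 0.95 over the libraries but 0.04 within genotypes, and FIT and IRT1 gave 0.33 and -0.39. These are descriptions of 9 libraries in 3 genotypes, which also differ in depth and may differ in the tissue sampled, so no p is attached.

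**Figure D3:**
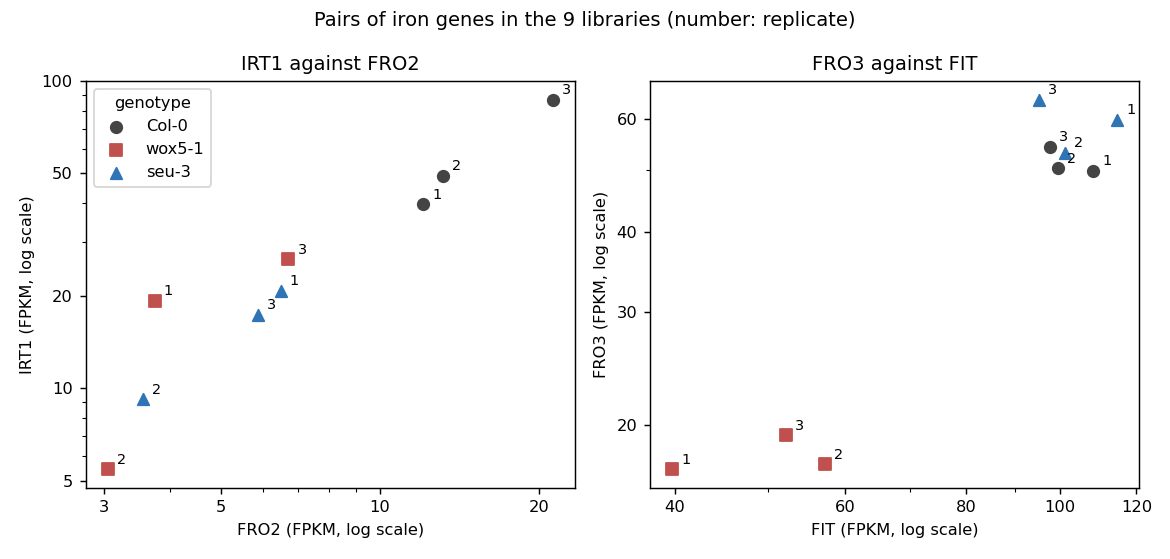
IRT1 against FRO2 (left) and FRO3 against FIT (right) in FPKM on log axes, 1 point per library marked by genotype and replicate number. IRT1 and FRO2 rise together across and within genotypes, whereas FIT and FRO3 set the 3 wox5-1 libraries apart and show no common order within a genotype.

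The levels of FRO2 and IRT1 were also set against FIT in the same library. FRO2 was 11.2% to 21.7% of the FIT level in Col-0 and 3.51% to 6.16% in seu-3, with no overlap, and 5.33% to 12.9% in wox5-1, where the ratios overlapped Col-0. IRT1 was 36.7% to 88.9% of FIT in Col-0, 9.11% to 18.2% in seu-3 and 9.52% to 50.5% in wox5-1, again overlapping Col-0 in wox5-1 but not in seu-3. The log2 ratio of FRO2 to FIT differed between seu-3 and Col-0 by -1.57, and that of IRT1 to FIT by -1.91, each with the smallest exact two-sided permutation p possible here, 0.1. In wox5-1 the same differences were -0.77 (exact permutation p = 0.2) and -0.93 (exact permutation p = 0.5). The ratios of the mutants overlapped each other, so these data do not separate wox5-1 from seu-3 in this respect.

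FRO3 (chr1:8149868-8153796, minus strand), a ferric reductase of mitochondria with expression around the vasculature, had 49.9, 50.4 and 54.4 FPKM in Col-0, 17.1, 17.4 and 19.3 in wox5-1, and 59.9, 53.3 and 64.4 in seu-3. The replicates were close in Col-0 and wox5-1, and the wox5-1 libraries lay far below the rest. The wox5-1 difference was -1.47 on the log2(FPKM + 1) scale (SE 0.10, limma adjusted p = 0.000137), a 2.88-fold lower mean FPKM and the 140th lowest of all tested genes. FRO3 did not pass in seu-3 (0.19, interval -0.03 to 0.42, limma adjusted p = 0.145), but passed as higher there after median-ratio scaling (0.46, adjusted p = 0.0144) and with sample quality weights (0.23, adjusted p = 0.00734). The mutants differed from each other by 1.67 (SE 0.10, limma adjusted p = 1.85e-05). FRO3 overlaps LPR1 by 24 bases, and LPR1 was between 2.17 and 4.71 FPKM in all libraries.

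NAS4, which makes the metal chelator nicotianamine, had 7.48, 9.12 and 5.21 FPKM in Col-0, 2.99, 2.45 and 2.79 in wox5-1, and 1.16, 1.80 and 1.29 in seu-3. The 3 genotypes did not overlap, with Col-0 highest and seu-3 lowest. The log2(FPKM + 1) difference from Col-0 was -1.12 in wox5-1 (SE 0.19, limma adjusted p = 0.00495) and -1.75 in seu-3 (SE 0.19, limma adjusted p = 0.000998), where the mean FPKM was 5.13-fold lower. NAS4 was lower in seu-3 than in wox5-1 (-0.64, SE 0.19, limma adjusted p = 0.0136), a call lost without seu-3 replicate 1 (0.0505), with median-ratio scaling (0.0623) and with quantile normalization (0.351). OPT3, which moves iron in the phloem, had 5.61, 8.01 and 5.81 FPKM in Col-0, 6.17, 4.79 and 5.74 in wox5-1, and 6.20, 7.56 and 7.71 in seu-3. Both mutants overlapped Col-0, the seu-3 libraries were all above those of wox5-1, and OPT3 passed neither test against Col-0 (-0.18, adjusted p = 0.384 in wox5-1, and 0.14, adjusted p = 0.4997 in seu-3, limma).

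Compared directly, the mutants differed in 3 of the 9 tested members, with FIT and FRO3 higher and NAS4 lower in seu-3. Over all tested genes 64.5% were called in this contrast, 19.9% higher and 44.6% lower, so the members' share is below the background. After median-ratio scaling the members called were 4 higher and 0 lower, and after quantile normalization 5 higher and 0 lower, with 5477 higher and 5479 lower, and 5325 higher and 5074 lower, over all genes in place of 3400 and 7613. Library values did not overlap for 5 of the 10 members, against 71.0% of tested genes. The median log2 difference of the tested members was 0.22, beside -0.27 for all tested genes. FRO2 (0.22, interval -0.43 to 0.87), IRT1 (0.07, interval -1.09 to 1.22) and bHLH39 (0.11, interval -0.27 to 0.48) did not pass, which does not show that the mutants are alike for them. BTS (0.30, limma adjusted p = 0.0678) passed after median-ratio scaling (0.00298), after quantile normalization (0.00781) and without wox5-1 replicate 2 (0.0420), and OPT3 (0.31, adjusted p = 0.0977) passed after those rescalings (0.00946 and 0.00449). Quantile normalization also called bHLH39 higher in seu-3 than in wox5-1 (0.54, adjusted p = 0.0318) and moved PYE from -0.29 to 0.04, while sample quality weights called PYE lower (-0.49, adjusted p = 0.0142).

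In bulk root tips, fewer cells of a type and less RNA per cell cannot be told apart. Of the 9 epidermis and root hair markers 0 rose and 2 fell in wox5-1, and 1 rose and 2 fell in seu-3 (limma). Of the 6 endodermis markers 0 rose and 0 fell in wox5-1, and 0 rose and 1 fell in seu-3. Root cap markers summed to 135 to 168 FPKM in Col-0 against 67.8 to 87.6 in wox5-1 and 137 to 148 in seu-3. Such sums follow the most abundant markers and can hide opposite changes. In seu-3 the mean of SMB was 4.59 FPKM against 10.3 in Col-0, and that of BRN1 was 52.2 against 39.9. Of the 4 root cap markers tested, 4 fell in wox5-1, and 0 rose and 1 fell in seu-3 (limma). Meristem markers summed to 15.3 to 17.3, 22.9 to 29.3 and 3.01 to 8.99 FPKM in Col-0, wox5-1 and seu-3. Of these 4 markers 2 rose and 0 fell in wox5-1, and 0 rose and 3 fell in seu-3 (limma). Over all tested genes 13.5% were lower and 13.7% higher in wox5-1, and 34.2% were lower and 6.66% higher in seu-3. With so few markers, counts near these shares are not results about a cell type. The part of the marker differences in the members' values was not tested. Without wox5-1 replicate 3, the library with the highest pollen markers, PYE was the only member whose wox5-1 call was lost. The remaining wox5-1 libraries also held pollen markers, at lower values.

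Beyond the members, 53 other iron genes were grouped by role, of which 34 were tested. In wox5-1 14 of them fell and 4 rose, and in seu-3 15 fell and 0 rose (limma), against backgrounds of 13.5% lower and 13.7% higher in wox5-1 and 34.2% lower and 6.66% higher in seu-3. The absence of rises in seu-3 depended on the scaling, since median-ratio scaling gave 4 higher and 10 lower there, quantile normalization 2 higher and 6 lower, and sample quality weights 3 higher and 19 lower. In the direct comparison 7 were higher and 11 lower in seu-3 than in wox5-1, against 19.9% higher and 44.6% lower over all tested genes, and median-ratio scaling gave 9 higher and 7 lower and quantile normalization 10 higher and 7 lower. Several of the genes named below overlap a neighbouring gene in the annotation, namely IREG2, NRAMP1, BTSL1, BTSL2, bHLH101, bHLH115, YSL2, FER1 and FER4. Close paralogs such as FRO4 and FRO5 may share fragments.

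Targets and partners of FIT in uptake numbered 13, of which 9 were tested. In wox5-1 5 fell and 1 rose (median log2 change -0.52, beside 0.05 for all tested genes). In seu-3 5 fell and 0 rose (median -0.50, beside -0.24). Over all tested genes 13.5% were lower and 13.7% higher in wox5-1, and 34.2% were lower and 6.66% higher in seu-3. The count of 6 called in wox5-1 was 2 when Col-0 replicate 2 was left out and 3 when wox5-1 replicate 1 was. The count of 5 in seu-3 was 3 when seu-3 replicate 2 or Col-0 replicate 2 or 3 was left out, and 2 with quantile normalization. With median-ratio scaling it was made up of 2 higher and 3 lower. IREG2, a vacuolar transporter that sequesters metals taken up along with iron, stood at 3.41 ± 0.213 FPKM in Col-0 against 1.72 ± 0.129 in wox5-1 and 0.493 ± 0.180 in seu-3 (n = 3 each). It fell by 0.70 in wox5-1 (adjusted p = 0.00984) and by 1.57 in seu-3 (adjusted p = 0.000367) on the log2(FPKM + 1) scale, and was lower in seu-3 than in wox5-1 (-0.87, adjusted p = 0.000503, limma). MTP3, a vacuolar zinc transporter, fell from 4.77 ± 0.147 FPKM in Col-0 to 1.69 ± 0.773 in wox5-1 (-1.14, limma adjusted p = 0.00691) and 2.46 ± 0.617 in seu-3 (-0.75, limma adjusted p = 0.0183). The seu-3 call of MTP3 was lost with median-ratio scaling (0.0734), with quantile normalization (0.239) and without seu-3 replicate 2 (0.0515) or Col-0 replicate 2 or 3 (0.0534 and 0.0525).

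NRAMP1, a transporter of manganese and iron, fell in seu-3 from 43.2 ± 9.59 to 22.5 ± 1.39 FPKM (-0.89, limma adjusted p = 0.00573), and stood at 47.6 ± 9.54 in wox5-1. ABCG37, an exporter of phenolic compounds, was at 101 ± 6.14 FPKM in Col-0 against 67.4 ± 12.5 in wox5-1 and 126 ± 12.7 in seu-3, and fell in wox5-1 (-0.59, limma adjusted p = 0.0185), a call lost without Col-0 replicate 1 (0.0541) or Col-0 replicate 2 (0.0613). BGLU42, a beta-glucosidase linked to the release of iron-mobilising phenolics, ran the other way in the mutants, rising from 10.7 ± 0.595 to 16.2 ± 1.95 FPKM in wox5-1 (0.55, limma adjusted p = 0.0211) and falling to 6.57 ± 1.18 in seu-3 (-0.64, limma adjusted p = 0.00717). The direct difference of BGLU42 was -1.19 (limma adjusted p = 0.000138). Its wox5-1 call was lost without wox5-1 replicate 1 (0.0794), Col-0 replicate 2 (0.0719) or Col-0 replicate 3 (0.0543), and its seu-3 call with quantile normalization (0.0857).

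Other iron regulators numbered 17, of which 10 were tested. In wox5-1 3 fell and 0 rose (median log2 change -0.20, beside 0.05 for all tested genes). In seu-3 4 fell and 0 rose (median -0.30, beside -0.24). Over all tested genes 13.5% were lower in wox5-1 and 34.2% in seu-3, so 4 of 10 in seu-3 is near the background. The count in seu-3 was 1 without Col-0 replicate 3 or with quantile normalization, and 2 without Col-0 replicate 2 or any 1 seu-3 library, and median-ratio scaling gave 1 higher and 2 lower. bHLH115, a transcription factor upstream of PYE and the FIT partners, was at 112 ± 5.57 FPKM in Col-0 against 67.1 ± 4.39 in wox5-1 and 119 ± 2.79 in seu-3. Like FIT and FRO3 it fell in wox5-1 (-0.73, limma adjusted p = 0.00123) and was higher in seu-3 than in wox5-1 (0.82, limma adjusted p = 0.000102). BTSL1, a relative of BTS that acts on FIT, fell from 11.8 ± 1.51 FPKM in Col-0 to 5.88 ± 0.505 in wox5-1 (-0.90, limma adjusted p = 0.00495) and 4.82 ± 1.02 in seu-3 (-1.15, limma adjusted p = 0.00198). BTSL2 fell in wox5-1 (-0.44, limma adjusted p = 0.0217), a call lost without wox5-1 replicate 1 (0.0734), Col-0 replicate 1 (0.0588) or Col-0 replicate 2 (0.0676). bHLH101, another FIT partner, fell in seu-3 (-0.84, limma adjusted p = 0.0157), a call lost without Col-0 replicate 3 (0.0501) and with quantile normalization (0.0800).

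Genes of iron movement and storage numbered 23, of which 15 were tested. In wox5-1 6 fell and 3 rose (median log2 change -0.45, beside 0.05 for all tested genes). In seu-3 6 fell and 0 rose (median -0.38, beside -0.24). Over all tested genes 13.5% were lower in wox5-1 and 34.2% in seu-3, so 6 of 15 in seu-3 is near the background. Median-ratio scaling gave 1 higher and 5 lower in seu-3, and quantile normalization 2 higher and 3 lower. The count of 9 called in wox5-1 was 5 without wox5-1 replicate 1. FER4, an iron storage ferritin, rose from 7.23 ± 0.678 FPKM in Col-0 to 14.1 ± 0.743 in wox5-1 (0.88, limma adjusted p = 0.00188) and stood at 8.80 ± 1.02 in seu-3. AT2G40290, which overlaps FER4 by 118 bases, had means of 48.6, 68.9 and 32.9 FPKM in Col-0, wox5-1 and seu-3, and its part in the FER4 values was not tested. FER1, another ferritin, named after its values were seen, was at 47.7 ± 9.52, 92.1 ± 18.7 and 40.9 ± 16.6 FPKM, and its rise in wox5-1 (0.93, limma adjusted p = 0.0319) was lost with no filter on low values (0.0523) and without any 1 of the Col-0 or wox5-1 libraries except Col-0 replicate 3, with adjusted p of 0.0732 and 0.109 without Col-0 replicates 1 and 2 and 0.0537, 0.0760 and 0.0652 without wox5-1 replicates 1, 2 and 3.

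ZIF1, a vacuolar carrier of nicotianamine that PYE represses, was at 6.17 ± 1.53 FPKM in Col-0 against 10.08 ± 1.54 in wox5-1 and 2.63 ± 0.468 in seu-3. Its rise in wox5-1 (0.64, limma adjusted p = 0.0327), named after its values were seen, was lost without Col-0 replicates 1 or 2 (0.0885 and 0.0820) without wox5-1 replicates 1 or 2 (0.121 and 0.0645) and with no filter on low values (0.0529). It fell in seu-3 (-0.97, limma adjusted p = 0.00521), and seu-3 was lower than wox5-1 (-1.61, limma adjusted p = 0.000136). The transporters YSL3 and IRT3 fell in wox5-1, YSL3 from 21.2 ± 1.29 to 12.3 ± 0.585 FPKM (-0.74, limma adjusted p = 0.00192) and IRT3 from 45.6 ± 4.97 to 23.8 ± 4.65 (-0.92, limma adjusted p = 0.00495). YSL3 fell in seu-3 as well (-0.38, limma adjusted p = 0.0141), a call lost with median-ratio scaling (0.376), with quantile normalization (0.228) and without Col-0 replicate 3 (0.0525). YSL2 fell in wox5-1 too (-0.75, limma adjusted p = 0.00435). The reductase FRO4 fell in both mutants, from 10.08 ± 1.65 FPKM in Col-0 to 5.00 ± 1.65 in wox5-1 (-0.91, limma adjusted p = 0.0129) and 4.08 ± 0.522 in seu-3 (-1.12, limma adjusted p = 0.00450). Its paralog FRO5 fell in wox5-1 only, from 18.2 ± 8.88 FPKM in Col-0 to 5.67 ± 1.35 (-1.44, limma adjusted p = 0.0139). In seu-3 FRO5 was at 12.9 ± 3.32 FPKM and did not pass (-0.39, limma adjusted p = 0.341). It was higher in seu-3 than in wox5-1 (1.04, limma adjusted p = 0.0159). The wox5-1 value of FRO4, the seu-3 value of YSL3 and all values of FRO5 were added after they were seen. The FRO5 calls are given for the main fit only. In seu-3 the nicotianamine synthase NAS2 fell from 14.3 ± 4.42 to 5.59 ± 1.27 FPKM (-1.20, limma adjusted p = 0.00632). NRAMP3, which releases iron from the vacuole, fell in seu-3 (-0.64, limma adjusted p = 0.00885), a call lost with quantile normalization (0.153).

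**Figure D4:**
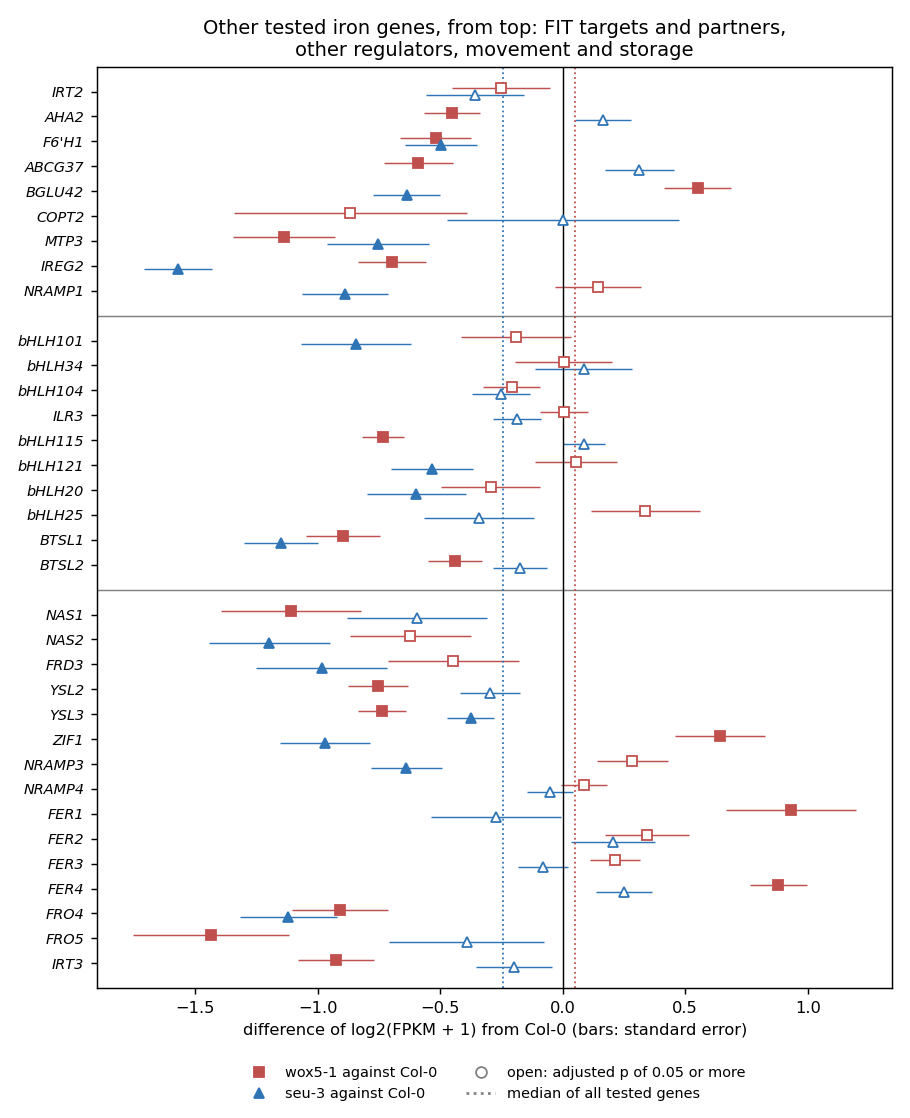
Difference of log2(FPKM + 1) for the tested genes of the 3 other iron lists in wox5-1 and in seu-3 against Col-0, with bars of 1 limma standard error, filled symbols at an adjusted p below 0.05 and dotted lines at the median of all tested genes. FER4 (0.88), FER1 (0.93), ZIF1 (0.64) and BGLU42 (0.55) lie above 0 in wox5-1, and with the scaling plotted no gene of the lists passed as higher in seu-3, whereas median-ratio scaling gave 4.

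Over the 9 libraries the genes outside the lists with the pattern most like FIT, by Pearson's r of log2(FPKM + 1), were AT1G35350 (0.992), AT5G14130 (0.990), AT5G17650, AT2G37540 and AT1G70340 (0.988 each). Such likeness was common, since 890 of the 17061 other tested genes, or 5.22%, had an r above 0.9 with FIT. For IRT1 it was rare, with 4 of 17061 genes, or 0.0234%, above 0.9. Those 4 were FRO2 (0.95), ELF4-L2 (AT1G72630, 0.947), the MYB transcription factor gene MYB49 (AT5G54230, 0.936) and bHLH39 (0.92), so 2 of them were members. CYSA (AT2G40880, 0.890), AT1G01640 (0.886) and AT3G26950 (0.885) came next among genes outside the members and lists.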

How the data were processed

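RNA was sequenced from 3 root tip samples each of Col-0, wox5-1 and seu-3. The deposited values are FPKM, computed by the authors with Bowtie and Cufflinks on TAIR10 per the submitters' processing notes; versions and options are not given in the sources used here. The labels do not state separate sowings, so the spread behind each p-value may be technical. The members and lists were chosen with earlier results of these data known.

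Genes averaging 1 FPKM or more in the 9 libraries were fitted as log2(FPKM + 1) with limma 3.58.1 in R 4.3.3, in 1 fit of genotype with an intensity trend. P-values were adjusted by Benjamini-Hochberg over all 17062 tested genes, with calls below 0.05. Folds of FPKM compare group means, and log2(FPKM + 1) differences understate changes of low genes. The script was tested on simulated data. WOX5 and bHLH38 lay below the filter, so they are outside that fit; bHLH38 is given with exact permutation tests and its limma values from the fit without the filter, and WOX5 as values. Replicate numbers were not taken to pair samples, since same-numbered libraries did not deviate together (r from -0.26 to 0.19).

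Genes named were all members, WOX5, SEU, up to 4 called genes of smallest p per list and contrast (a part is printed), and the 5 genes most like FIT and IRT1. Names, overlaps and upstream sequence came from RefSeq TAIR10.1, where 32826 identifiers matched. Alternatives were a pseudocount of 0.1, no filter or a mean of 5 FPKM, median-ratio and quantile scaling, a replicate block, no trend, quality weights, only the 6 libraries compared and leaving out each library. Summaries used Python 3.11.15 with pandas 2.3.3, scipy 1.17.1 and numpy 2.4.6, and figures matplotlib 3.10.9.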

Additional observations from a re-analysis of the deposited data

How the results depend on the processing

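Over 480 combinations of a tested member, a contrast and an alternative, 448 kept the direction and the side of the threshold, 13 lost a call, 11 gained one and 8 turned direction. FIT, FRO2, FRO3, NAS4 and bHLH39 in wox5-1, and FRO2 and NAS4 in seu-3, kept their calls under every alternative in which they were tested. None of the 8 that turned had been called, and the cause was not tested: FIT in seu-3 (-0.0077 if Col-0 replicate 3 was left out, -0.053 if seu-3 replicate 1 was, within a leave-one-out range of -0.053 to 0.080), OPT3 in seu-3 (-0.17 with quality weights), and, between seu-3 and wox5-1, IRT1 (-0.16, -0.033 and -0.56 without seu-3 replicate 1, seu-3 replicate 3 and wox5-1 replicate 2, range -0.56 to 0.49), bHLH39 (-0.0074 without wox5-1 replicate 2, range -0.0074 to 0.25) and PYE (0.036 with quantile normalization). The members called in seu-3 were 2 with a filter at 5 FPKM, which removes NAS4 and bHLH39 from the test, and between the mutants 5 with quantile normalization. Leaving out 1 library at a time gave 5 to 7 members called in wox5-1, 3 to 4 in seu-3 and 2 to 4 between the mutants, and 1523 to 5628, 4575 to 7117 and 9710 to 11008 of all genes. Quality weights called 7133 genes in wox5-1 and 11040 in seu-3. With replicate number as a block, 7, 4 and 3 members were called, as without it, and 3186, 5955 and 10499 of all genes; of the other named genes, ZIF1 (adjusted p = 0.0602) and BTSL2 (0.0503) lost their wox5-1 calls. Depth bears on bHLH38, with roughly 1.29 to 15.7 fragments per library.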

Other observations

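Some iron genes below the filter on low values had levels near the limit of detection. CYP82C4, which hydroxylates the coumarin fraxetin, was at 1.65 ± 1.11 FPKM in Col-0 against 0.181 ± 0.164 in wox5-1 and 0.0331 ± 0.0573 in seu-3 (SD, n = 3 each), and was chosen after its values were seen. The FIT partner bHLH100 was listed at 0, 1.05 and 1.43 FPKM in Col-0, at 0.219, 0 and 0 in wox5-1 and at 0.678, 0.245 and 1.11 in seu-3, with overlapping groups. IMA2, which encodes a small peptide that promotes iron uptake, was listed at 1.49, 0.782 and 1.38 FPKM in Col-0, at 0, 0 and 0.724 in wox5-1 and at 0 in the 3 seu-3 libraries. Both were also chosen after their values were seen.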
